A study of Homo sapiens with 24 samples.

Results

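Retained-intron transcripts are annotated isoforms of a gene that keep sequence which other isoforms of that gene splice out. All transcripts with the GENCODE 29 biotype retained_intron that had at least 10 reads in at least 3 of 24 libraries were taken as 1 class. The class held 18416 of 27328 retained-intron transcripts, which was 67.4% of them, among 199612 transcripts of the deposited tables. They belonged to 7222 host genes, and 18027 of them lay in protein-coding genes. The libraries came from HCT116, a human colorectal cancer cell line, in which the TNRC6 paralogs had been knocked out or depleted, with 3 libraries in each of 8 groups. The 4 untransfected groups were wild type (WT), TNRC6A-/-, TNRC6B-/- and the double knockout TNRC6AB-/-. The 4 transfected groups were WT and TNRC6AB-/- cells that received either siTNRC6C, a pool of siRNAs against the remaining paralog, or siGL2, a control duplex. The wild-type line and the knockout lines came from different suppliers and each genotype was 1 line, so line and genotype cannot be told apart. The double knockout cells grew more slowly and were seeded more densely, and transfected and untransfected libraries differed in handling. The knockout was made by a frameshifting point mutation in TNRC6A and by a large deletion in TNRC6B, so transcripts of both genes could still be counted.

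TNRC6 proteins are scaffolds that join Argonaute proteins, loaded with small RNAs, to the deadenylase complexes that shorten and destabilise messenger RNAs. Intron removal by the spliceosome normally takes place in the nucleus, and a transcript that keeps an intron tends to stay there until it is spliced or destroyed. Those that reach the cytoplasm often carry an early stop codon and can be degraded by nonsense-mediated decay. A subset, called detained introns, is spliced late in a regulated way and is common in genes for splicing kinases and SR proteins. In whole-cell RNA, a retained-intron transcript therefore includes unspliced nuclear precursors as well as stable RNAs, and a table of transcript counts does not separate them. In these bulk samples, more cells that carry an RNA and more RNA in each cell cannot be told apart.

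The whole introns that members held inside an exon were short, and most had GT-AG ends. Of 18282 members whose annotated length equalled that in the tables, 6204 (33.9%) held at least 1 whole intron of another isoform inside an exon. What the others kept was not measured, and 255 (1.4%) of the 18282 had no base outside exons of other biotypes. The 7937 introns so held had a median length of 243 bases, against 1753 bases for 147878 other introns of the same genes. An intron had to fit whole inside an exon, and of overlapping introns only the shortest was counted. Both choices favour short introns, so the difference in length is partly set by the selection. Their median GC content was 55.2%. GT-AG ends were found in 97.1% of them, GC-AG ends in 1.84% and AT-AC ends in 0.13%. Donor sites (3 exon bases, then 6 intron bases) and acceptor sites (20 intron bases, then 3 exon bases) are shown 5′ to 3′ from GRCh38, with the first 2 and last 2 intron bases in capitals. The first 4 are the most abundant members that hold a whole intron, and for a member with several the one with the lowest coordinates is shown. RPS23-203 holds 1, while EEF1A1-206, DDX5-215 and VMP1-216 hold 2 each, of which the second in EEF1A1-206 has AC-AG ends. The intron shown for RPS23-203 lay at chr5:82277853-82277930 on the minus strand, that of EEF1A1-206 at chr6:73518849-73518931 on the minus strand, that of DDX5-215 at chr17:64500774-64501056 on the minus strand, and that of VMP1-216 at chr17:59838213-59838311 on the plus strand.
RPS23-203 donor: cagGTgagg
RPS23-203 acceptor: ctaaaatatttaatttttAGgca
EEF1A1-206 donor: aacGTaagt
EEF1A1-206 acceptor: ttggcatgcttgtgtttcAGatg
DDX5-215 donor: tctGTaagg
DDX5-215 acceptor: cacactgcaacaccttacAGatg
VMP1-216 donor: gtgGTaagt
VMP1-216 acceptor: cagtgctgtccccggcatAGgtc

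The other 4 belong to members of splicing, export and silencing genes that rose in the strongest depletion relative to WT siGL2 and were chosen after their values were seen. They lay at chr19:49103588-49104633 (plus strand) in SNRNP70-203, chr21:43093250-43094470 (minus strand) in U2AF1-210, chr16:3024087-3024192 (plus strand) in THOC6-208 and chr16:24805152-24805604 (plus strand) in TNRC6A-206. SNRNP70-203 and TNRC6A-206 hold 1 intron, U2AF1-210 holds 3 and THOC6-208 holds 5, of which the one shown has a GC donor and the other 4 have GT-AG ends.
SNRNP70-203 donor: tcgGTaaat
SNRNP70-203 acceptor: cctccccacatctgttacAGccg
U2AF1-210 donor: gaaGTgagt
U2AF1-210 acceptor: tttattttccttggttgcAGgca
THOC6-208 donor: aagGCaggc
THOC6-208 acceptor: gcgctcacctcggctcctAGggt
TNRC6A-206 donor: cagGTaaat
TNRC6A-206 acceptor: cttaccattgtgatcctaAGgtt

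Libraries held 28144290 to 42689320 reads, and 12678 to 16534 members had at least 10 reads in a given library. Most members were rare. Their mean read counts had quartiles of 12.9, 27.5 and 67.2, 10412 of them (56.5%) averaged under 1 TPM (Salmon's abundance scaled to transcript length and library total), and 1176 members held 50% of the reads of the class. At the threshold, the 562 members that reached 10 reads in exactly 3 libraries had a median of 5.13 mean reads, and the 672 transcripts left out with exactly 2 such libraries had a median of 4.16. Of 10 colon epithelial markers 7 were at or above 1 CPM (reads scaled to the library total, with no allowance for length), with CDX1, VIL1 and LGALS4 below it. Of 14 markers that a pure line of this kind should lack (blood cell, endothelial and fibroblast genes) 5 reached 1 CPM on average (PECAM1, VWF, COL1A1, COL1A2 and COL3A1), while CD3E was at 0 in 20 and LUM in 18 of 24 libraries. Summed, this list stood at 67 to 94.5 CPM in TNRC6AB-/- against 28.4 to 36.9 CPM in WT, and at 62.9 to 69.4 CPM in TNRC6AB-/- siTNRC6C and 38.2 to 47.6 CPM in TNRC6AB-/- siGL2 against 18.8 to 27.8 CPM in WT siGL2, without overlap. Most of it was collagen RNA, with COL3A1 at 41.5 CPM on average in TNRC6AB-/- and 0.0557 CPM in WT. Its part in the results for the double knockout was not tested. TNRC6C transcripts fell from 120, 120 and 121 CPM in TNRC6AB-/- siGL2 to 22.5, 21.7 and 19.9 CPM in TNRC6AB-/- siTNRC6C.

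As a class, retained-intron transcripts took between 3.26% and 5.69% of the reads of a library. The share was 4.97, 5.13 and 4.49% in the WT libraries, 4.56, 4.64 and 4.36% in TNRC6A-/-, 5.69, 3.70 and 3.36% in TNRC6B-/-, and 5.11, 3.83 and 3.49% in TNRC6AB-/-. In transfected cells it was 3.26, 3.31 and 4.30% in WT siGL2, 3.46, 3.61 and 3.56% in WT siTNRC6C, 3.49, 3.72 and 4.46% in TNRC6AB-/- siGL2, and 4.49, 4.52 and 4.29% in TNRC6AB-/- siTNRC6C. In 4 groups 1 library stood well above the other two: replicate 1 of TNRC6B-/- and of TNRC6AB-/-, and replicate 3 of WT siGL2 and of TNRC6AB-/- siGL2. The spread within these groups was as large as most differences between groups.

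**Figure D1:**
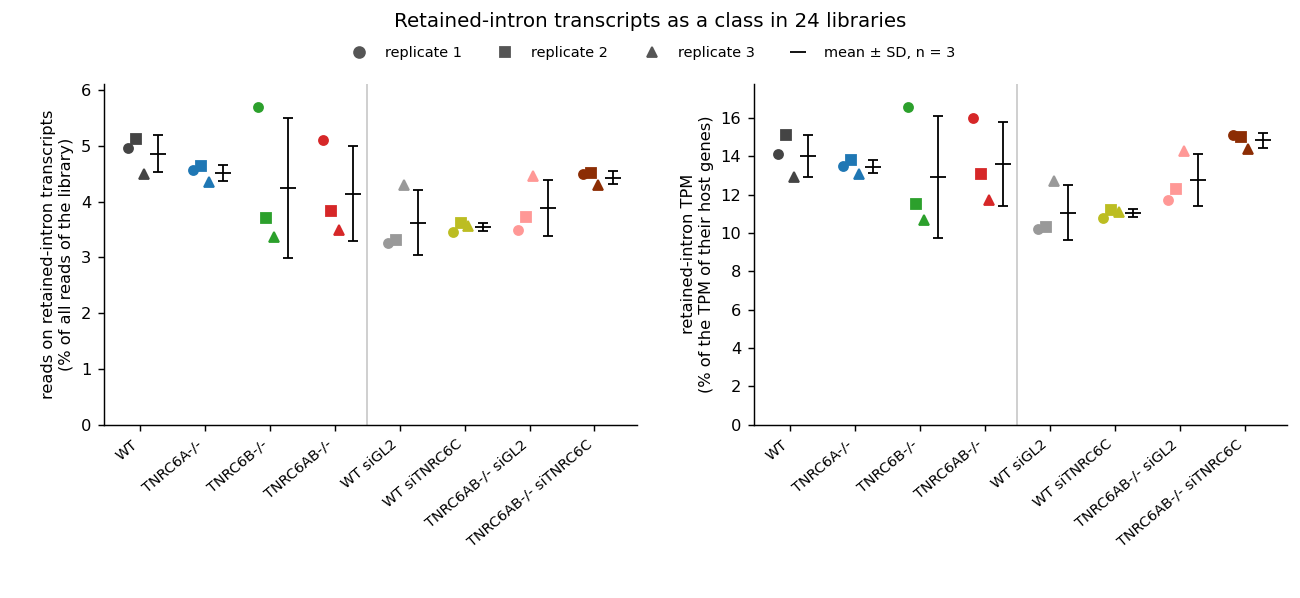
Share of retained-intron transcripts in each of 24 libraries, as a percentage of all reads (left axis panel) and as a percentage of the TPM of their host genes (right panel), by group, with the mean ± SD of 3 libraries beside the points. The 3 TNRC6AB-/- siTNRC6C libraries lie at 14.4 to 15.1% of host-gene TPM, above the WT siGL2 libraries at 10.2 to 12.7%.

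The second measure sets the TPM of the members against all TPM of their host genes, and so against the other isoforms of the same genes. It was 14.1, 15.1 and 12.9% in WT, 13.5, 13.8 and 13.1% in TNRC6A-/-, 16.6, 11.5 and 10.7% in TNRC6B-/-, and 16, 13.1 and 11.7% in TNRC6AB-/-. It was 10.2, 10.3 and 12.7% in WT siGL2, 10.8, 11.2 and 11.1% in WT siTNRC6C, 11.7, 12.3 and 14.3% in TNRC6AB-/- siGL2, and 15.1, 15 and 14.4% in TNRC6AB-/- siTNRC6C. All 3 libraries of the last group lay above every other transfected library.

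None of the knockouts shifted the class beyond the spread between libraries. Within host genes, TNRC6A-/- averaged 13.5% against 14.0% in WT (exact permutation p = 0.5, two-sided), TNRC6B-/- averaged 12.9% (exact permutation p = 0.7), with a difference of −1.10 points that was −2.93 without TNRC6B-/- replicate 1, and TNRC6AB-/- averaged 13.6% (exact permutation p = 0.8). The difference of TNRC6AB-/- from WT was −0.449 percentage points, and it was −1.65 without TNRC6AB-/- replicate 1 and 0.496 without TNRC6AB-/- replicate 3. Depletion of TNRC6C in WT cells gave 11% against 11.1% (exact permutation p = 1.0), a difference of −0.443 without WT siGL2 replicate 1 and of 0.803 without WT siGL2 replicate 3. In double knockout cells the same depletion gave 14.8% against 12.8%, a difference of 2.06 points in which the groups did not overlap (exact permutation p = 0.1), and of 1.53 to 2.84 when 1 library was left out. TNRC6AB-/- siTNRC6C stood 3.76 points above WT siGL2, a ratio of 1.34, also without overlap (exact permutation p = 0.1), and the difference ran from 3.33 to 4.58 when 1 library was left out. With 3 libraries against 3, no p below 0.1 can be reached. Over the 22 class tests made, the smallest Benjamini-Hochberg adjusted p was 0.55. A test of the double knockout stratified by transfection gave 0.624 points (exact permutation p = 0.53), and a test of siTNRC6C stratified by genotype gave 1.02 points (exact permutation p = 0.175), both with 0.005 as the smallest possible p.

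Transfected and untransfected WT libraries differed. WT siGL2 lay 2.97 points below untransfected WT within host genes and 1.24 points below it in share of reads, with no overlap in either measure (exact permutation p = 0.1 for both). Without WT siGL2 replicate 3 the first difference was −3.79 points, and −2.43 was the smallest difference when another library was left out. In the double knockout the matching difference, TNRC6AB-/- siGL2 from untransfected TNRC6AB-/-, was −0.824 points within host genes with overlap (12.8% against 13.6%, exact permutation p = 0.7), and −1.77 to 0.381 when 1 library was left out (the highest without TNRC6AB-/- replicate 1). Fragment lengths, read as the median difference between transcript length and effective length, were 164 to 171 bases in TNRC6A-/-, 181 to 191 bases in the other untransfected libraries and 196 to 213 bases in the transfected ones, so transfection cannot be told apart from other differences between these sets of libraries.

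Several RNAs that stay in the nucleus were high in the libraries with a high class share, though not in every comparison. The list of MALAT1, NEAT1, KCNQ1OT1, TUG1 and MEG3, long non-coding RNAs found mostly in the nucleus, summed to 5821 to 6371 CPM in WT siTNRC6C, 5932 to 11522 CPM in WT siGL2, 9580 to 15236 CPM in TNRC6AB-/- siGL2 and 16942 to 18440 CPM in TNRC6AB-/- siTNRC6C. In untransfected cells it summed to 11230 to 29279 CPM in WT, 9583 to 11394 CPM in TNRC6A-/-, 9449 to 16546 CPM in TNRC6B-/- and 9763 to 20089 CPM in TNRC6AB-/-. MEG3 stayed below 1 CPM throughout and no marker was at 0 in all libraries of a group. In each of the 8 groups the library with the highest share of reads on retained-intron transcripts was also the one with the most MALAT1, and for the share within host genes the same held for MALAT1 in 7 groups and for NEAT1 in 7 groups. TUG1 was highest in that library in 5 groups by either share. Other values followed the same order. The percentage of reads on processed transcripts was highest in that library in 7 groups by share of reads and 8 by share within host genes. For antisense transcripts these were 7 and 6 groups. That library also had the fewest reads of its group in 4 groups by the first share and 5 by the second. MALAT1 was 16939, 16992 and 15621 CPM in TNRC6AB-/- siTNRC6C against 5226, 5431 and 9845 CPM in WT siGL2, without overlap. KCNQ1OT1 and TUG1 also did not overlap between these groups, while NEAT1 and MEG3 did, so 3 of 5 markers moved with the class in this comparison. Relative to TNRC6AB-/- siGL2, the class share within host genes was also higher in TNRC6AB-/- siTNRC6C without overlap. There MALAT1, NEAT1, KCNQ1OT1 and TUG1 were higher without overlap, and MEG3 overlapped. MALAT1 averaged 8830 CPM in TNRC6A-/- against 16700 CPM in WT without overlap, where the class share was lower with overlap. The other markers overlapped between those 2 groups. In some comparisons a marker and the class share went different ways. TUG1 averaged 209 CPM in TNRC6AB-/- against 119 CPM in WT without overlap, where the mean class share was lower in the knockout but overlapped. NEAT1 averaged 454 CPM in WT siTNRC6C against 842 CPM in WT siGL2 without overlap, where the class share differed by −0.0184 points with overlap. In TNRC6AB-/- siGL2 NEAT1 averaged 650 CPM, below WT siGL2 with overlap, where the mean class share was higher, also with overlap. Since the class share overlapped in each of these comparisons, its direction there is uncertain. The part of nuclear RNA content in the class differences was not tested.

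**Figure D2:**
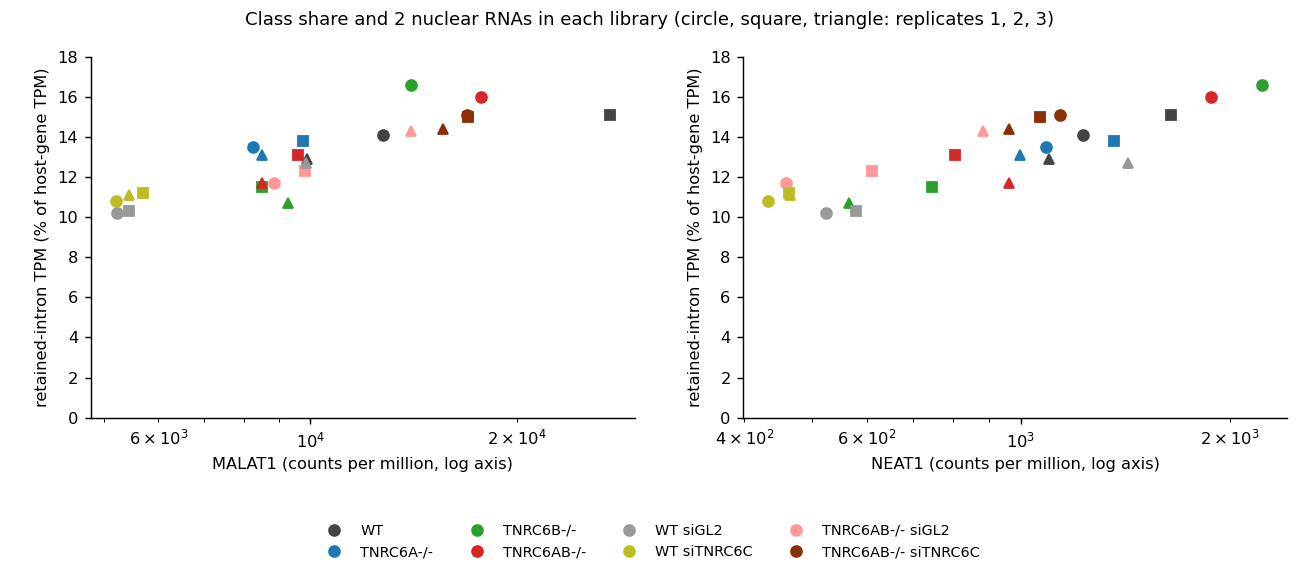
Share of retained-intron transcripts within host genes (vertical axis, % of TPM) against MALAT1 (left) and NEAT1 (right) in CPM on a log axis, 1 point for each of 24 libraries, coloured by group. Within most groups the library with the most MALAT1 is also the highest in retained-intron share, and WT replicate 2 has the most MALAT1 at 27370 CPM.

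Single members were tested in 2 ways with edgeR's quasi-likelihood test. Usage is the number of reads of a transcript relative to all reads of its gene, and level is its number of reads relative to the library. A member was called where the Benjamini-Hochberg adjusted p over all transcripts tested was below 0.05 and the change exceeded 0.6 on the log2 scale. Few changes in usage were recovered in simulated data (values given with the processing), so members that were not called may still have changed. Of the 18416 members, 17000 passed the low-read filter for usage in the untransfected libraries and 17217 in the transfected ones. Percentages given for single members are shares of the gene's TPM in each library, which allow for transcript length. Since usage counts reads, a log2 change in usage need not equal the ratio of the TPM shares. Reads summed over all members of a gene, again relative to the gene's total, give the gene's summed share, a measure that does not move when reads pass from 1 retained-intron isoform to another.

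In TNRC6A-/- cells 14 members rose and 44 fell in usage, where 0.905% of all transcripts tested were called (0.338% higher, 0.566% lower), and in level 25 rose and 32 fell, against 0.916% of all (0.504% higher, 0.413% lower). The TNRC6A-/- libraries had the shortest fragments, as given above, and the part of fragment length in these calls was not tested. Among the rises, RPL8-204, from a gene for a protein of the large ribosomal subunit, made up 12.1, 9.27 and 8.61% of its gene's TPM in TNRC6A-/- and 2.07, 1.49 and 2.80% in WT. The knockout libraries all lay above the WT libraries, and usage was higher by 2.20 on the log2 scale (SE 0.28, adjusted p = 0.00558). TUBA1C-203, from an alpha-tubulin gene, made up 8.96, 6.88 and 6.90% against 0.112, 1.17 and 0.699%, again with all knockout libraries above, a rise of 3.5 (SE 0.7, adjusted p = 0.0491) that passed the threshold in no fit that left out 1 of the 6 libraries, where adjusted p was 0.0605 to 0.159. MRPL3-206, from a mitochondrial ribosomal protein gene, rose by 1.59 (SE 0.32, adjusted p = 0.0481) from 1.90, 1.67 and 3.44% to 6.58, 6.12 and 6.77%, and its call held in 1 of the 6 fits without a library, the one without WT replicate 3.

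Of the members that fell in TNRC6A-/-, the 5 largest falls named by rule were in members with at most 74 reads in any WT library. INTS3-202, of a subunit of the Integrator complex, had 21.3, 49.8 and 26.1 reads in WT and was listed at 0 in the 3 TNRC6A-/- libraries (adjusted p = 0.00974, and 0.0192 to 0.035 without 1 library). The summed share of INTS3 differed by −0.01 (adjusted p = 1.0). SH3BP2-220, TXNRD2-217 and AKAP9-208 had 5.18 to 38.9 reads in the WT libraries and were also listed at 0 in TNRC6A-/- (adjusted p = 0.0353, 0.0327 and 0.024), and the summed shares of their genes differed by −0.27, −0.1 and −0.3 with none called. MAX-209, of a partner of the MYC protein, made up 21.8, 34.9 and 24.2% of its gene in WT and 0, 2.96 and 0% in TNRC6A-/-, without overlap (−5.12, SE 0.95, adjusted p = 0.0352). Without 1 library the calls of SH3BP2-220 and TXNRD2-217 were lost in all 6 fits (adjusted p of 0.0642 to 0.0922). AKAP9-208 held its call only without WT replicate 3 (adjusted p of 0.0483 to 0.0786) and MAX-209 only without TNRC6A-/- replicate 2 (adjusted p of 0.0108 to 0.0983).

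Summed over members of a gene, 6 genes rose and 15 fell in TNRC6A-/-, against 0.393% of gene and biotype sums called (0.154% higher, 0.239% lower). TTLL5, a tubulin polyglutamylase, had the clearest fall, from 35.8, 55.0 and 40.2% of its TPM in WT to 2.09, 1.44 and 2.08%, far below any WT library (−4.20, SE 0.22, adjusted p = 7.84e-05). Its call held in all 6 fits that left out 1 library. TOMM22, a receptor of the mitochondrial import complex, rose from 13.8, 15.8 and 16.2% to 35.3, 39.1 and 33.2% without overlap (1.5, SE 0.26, adjusted p = 0.0379), although adjusted p was 0.0812 to 0.159 when any 1 of the 6 libraries was left out. PAICS, an enzyme of purine synthesis, fell from 18.9, 22.9 and 16.4% to 10.6, 8.12 and 8.02%, with all knockout libraries below WT (−1.13, adjusted p = 0.0195, and 0.0735, 0.087 and 0.0797 without WT replicate 1, TNRC6A-/- replicate 2 and TNRC6A-/- replicate 3). Over all members tested the median usage difference was −0.14, against −0.05 for all transcripts tested and −0.11 for processed transcripts. The number of members called in usage was 22 without WT replicate 1 and at most 37 with another library left out.

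TNRC6B-/- cells had the fewest calls of the 3 knockouts. The median usage difference of the members tested was −0.17, against −0.04 for all transcripts tested and −0.12 for processed transcripts. No member was called in usage by edgeR, against 0.0136% of all transcripts tested (0.00496% higher, 0.00867% lower), while 515 members had an unadjusted p under 0.05, and limma on log2 TPM shares called 3 members with a pseudocount of 0.1 and 1 with a pseudocount of 1. In level 1 member rose and 2 fell, against 0.0443% of all transcripts (0.0171% higher, 0.0273% lower). The summed share of a gene was called for none, against 0.00342% of all sums (1 sum, which was lower), with 292 at an unadjusted p under 0.05. Without TNRC6B-/- replicate 1, the library with the highest class share, 3 members were called in usage and 5 genes in summed share.

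In TNRC6AB-/- cells 1 member rose and 4 fell in usage relative to WT, against 0.0781% of all transcripts tested (0.0384% higher, 0.0397% lower). In level 69 rose and 229 fell, against 2.64% of all transcripts, of which more rose (1.56%) than fell (1.08%). The number called in usage was 0 to 3 when 1 of the 6 libraries was left out. The median usage difference of the members tested was −0.17, against −0.04 for all transcripts and −0.13 for processed transcripts. PSMB10-203 (chr16:67934506-67935795), from the gene for a catalytic subunit of the immunoproteasome, made up 87.3, 90.3 and 94.0% of its gene's TPM in WT and 62.6, 61.0 and 61.1% in TNRC6AB-/-. The knockout libraries were all lower and nearly equal, and usage fell by 1.06 on the log2 scale (SE 0.13, adjusted p = 0.0209). COL15A1-204 (chr9:99038673-99041377), of a collagen chain gene, made up 99.6, 98.3 and 99% in WT and 78.7, 69.6 and 63.5% in the double knockout, all lower (−2.01, SE 0.24, adjusted p = 0.0209), in a gene that averaged 1.82 TPM against 1.16 TPM in WT. FN1-227 (chr2:215360866-215363640), of the fibronectin gene, made up 15.7, 18.3 and 15.3% in WT and 3.86, 2.67 and 3.78% in TNRC6AB-/-, without overlap (−2.35, SE 0.29, adjusted p = 0.0227), while the whole gene averaged 7.51 TPM against 1.90 TPM. None of these members was called in level. The level differences were −0.43 for PSMB10-203 (adjusted p = 0.581), 0.22 for COL15A1-204 (adjusted p = 0.824) and −0.21 for FN1-227 (adjusted p = 0.796). Reads in the WT libraries were few, 21.7 to 30.1 for COL15A1-204 and 26.9 to 27.7 for FN1-227. With any 1 of the 6 libraries left out, adjusted p of usage was 0.0652 to 0.0999 for PSMB10-203 and 0.0702 to 0.116 for FN1-227. For COL15A1-204 it was 0.0422 to 0.107 and stayed below 0.05 only without TNRC6AB-/- replicate 1.

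The other called members of TNRC6AB-/- were at 0 reads in 1 group. SF3A1-208, of a U2 snRNP subunit gene, was listed at 0 in the 3 WT libraries and made up 2.35, 3.44 and 5.30% in TNRC6AB-/- (adjusted p = 0.0396). INTS3-202 was listed at 0 in the knockout and made up 1.36, 2.66 and 1.38% in WT (adjusted p = 0.0446). The summed share of SF3A1 differed by 0.02 (SE 0.41, adjusted p = 1.0) and that of INTS3 by −0.41 (adjusted p = 0.384). Other retained-intron isoforms of SF3A1 thus held reads of the gene in WT, though with this SE the shares need not be equal. Neither call held without any 1 of the 6 libraries, where adjusted p was 0.0692 to 0.11 for SF3A1-208 and 0.073 to 0.11 for INTS3-202. In summed share 1 gene rose and 7 fell, against 0.0854% of all sums (0.0239% higher, 0.0615% lower). SIGIRR, a receptor that dampens interleukin-1 signalling, rose from 14.2, 25.2 and 21% to 35.9, 31.8 and 32.0% without overlap (1.08, adjusted p = 0.0438). ANKRD52, a regulatory subunit of protein phosphatase 6, fell from 11.4, 8.51 and 11.4% to 2.30, 3.20 and 3.35% (−2.03, adjusted p = 0.0363), LMAN2L, a lectin of the secretory pathway, fell from 17.7, 15.8 and 16.1% to 6, 5.51 and 4.76% (−1.84, adjusted p = 0.0363), and LGALS3BP, which binds galectin-3, fell from 11.6, 10.0 and 10.0% to 6.12, 4.69 and 4.98% (−0.97, adjusted p = 0.0164). Each of these 4 genes had groups without overlap. Without any 1 library the calls of SIGIRR, ANKRD52 and LMAN2L were lost (adjusted p of 0.0864 to 0.193 over the 3 genes), and that of LGALS3BP held only without TNRC6AB-/- replicate 1 (adjusted p of 0.036 to 0.121).

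Few calls were made after depletion of TNRC6C alone in WT cells. No member rose and 1 fell, against 0.0182% of all transcripts tested (0.0085% higher, 0.00971% lower). In level 1 rose and 12 fell, against 0.296% (0.0824% higher, 0.214% lower). No gene was called in summed share by edgeR, against 0.00338% of all sums, with 353 genes at an unadjusted p under 0.05. The called member was HSPA8-211 (chr11:123059233-123062207), of the constitutive HSP70 chaperone gene, which made up 1.67, 1.78 and 2% in WT siGL2 and 0.729, 1.04 and 0.983% in WT siTNRC6C. The siTNRC6C libraries were all lower (−1.02, SE 0.13, adjusted p = 0.0455), and the gene averaged 747 TPM against 444 TPM, with a level difference of the member itself of −0.31 (adjusted p = 0.536). Leaving out any 1 of the 6 libraries gave adjusted p of 0.0633 to 0.135.

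In double knockout cells siTNRC6C was followed by 3 rises and 5 falls in usage relative to siGL2, against 0.0753% of all transcripts tested (0.0243% higher, 0.051% lower), and by 78 rises and 73 falls in level, against 1.83% (0.52% higher, 1.31% lower). Across the members tested the median usage difference was 0.25, and 76.0% of them lay above 0. The median was 0.06 for all transcripts tested and 0.17 for processed transcripts. With 1 library left out, 2 members (without TNRC6AB-/- siTNRC6C replicate 2) to 17 (without TNRC6AB-/- siGL2 replicate 3) were called in usage. TNRC6C-208 (chr17:78051067-78077779) belongs to the depleted gene and made up 3.77, 4.10 and 6.92% of it with siGL2 and 13.4, 9.88 and 10.3% with siTNRC6C, all higher (2.07, SE 0.27, adjusted p = 0.0278). The gene averaged 6.45 TPM against 18.3 TPM, while TNRC6C-208 had 53.5, 50.7 and 37.8 reads with siTNRC6C and 50.8, 52.8 and 73.2 with siGL2 (level difference −0.52, adjusted p = 0.353). In WT cells it made up 5.15, 3.82 and 5.00% with siGL2 and 12.7, 12.6 and 9.34% with siTNRC6C, also without overlap, a difference of 1.51 (SE 0.28) that did not pass the threshold (adjusted p = 0.226). The call in double knockout cells held without replicate 3 of either group and was lost without replicate 1 or 2 of either, with adjusted p of up to 0.121. The summed share of TNRC6C members rose from 16.1, 13.8 and 24.5% to 38.6, 41.6 and 50.8% (2.11, adjusted p = 0.04, and 0.0286 to 0.221 without 1 library), beside 2 genes that rose and 5 that fell in all and 0.054% of all sums called (0.0203% higher, 0.0338% lower).

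HMGA2-211 (chr12:65824811-65829013), of a chromatin architectural protein gene known as a let-7 target, made up 10.1, 9.71 and 11.5% with siGL2 and 5.78, 5.84 and 5.38% with siTNRC6C in double knockout cells, all lower (−1.0, SE 0.12, adjusted p = 0.0143). The gene averaged 380 TPM against 153 TPM, and the level of the member differed by 0.21 (adjusted p = 0.357), so the fall in usage went with more reads of the gene as a whole. The call was lost without TNRC6AB-/- siTNRC6C replicate 2 or 3 (adjusted p = 0.0529 and 0.0628). CD44-225, of the hyaluronan receptor gene, made up 1.17, 1.51 and 1.49% with siGL2 and 3.05, 2.91 and 4% with siTNRC6C (1.26, SE 0.19, adjusted p = 0.045). SUSD2-202 made up 3.72, 5.06 and 4.43% and 12.9, 12.8 and 12.3% (1.46, SE 0.22, adjusted p = 0.0482). DUSP2-202, of a phosphatase that acts on MAP kinases, made up 30.4, 31.4 and 26.6% and 11.7, 8.88 and 10.2% (−1.67, SE 0.21, adjusted p = 0.0242), and TMEM167A-205 made up 7.94, 7.23 and 5.99% and 2.83, 3.20 and 3.02% (−1.48, SE 0.2, adjusted p = 0.0327). None of these 4 members had overlapping groups, and the calls of SUSD2-202 and CD44-225 were lost without any 1 of the 6 libraries (adjusted p of 0.0666 to 0.186), while those of DUSP2-202 and TMEM167A-205 each held in 1 such fit, without TNRC6AB-/- siGL2 replicate 3. The response of usage to siTNRC6C differed between the double knockout and WT in 5 members by edgeR's test of the interaction, against 0.0534% of all transcripts tested (0.0158% higher, 0.0376% lower). The response was higher in the double knockout for RABGGTA-220, CD44-225 and FAM208A-203 and lower for SLC1A3-205 and ALDH1A3-205, and the call for FAM208A-203 alone held in each of the 12 fits that left out 1 library. By summed share 1 gene, FAM208A, was called, against 0.0169% of all sums (0.00675% higher, 0.0101% lower). SLC1A3-205, of a glutamate transporter gene, and ALDH1A3-205, of a retinaldehyde dehydrogenase gene, were listed at 0 in the 3 siTNRC6C libraries (adjusted p = 0.00448 and 0.00959). The summed share of SLC1A3 differed by −0.43 (adjusted p = 0.278), and ALDH1A3 was among the 5 genes called lower in summed share (adjusted p = 0.0361).

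The transfected double knockout differed from transfected WT in more members. TNRC6AB-/- siGL2 had 97 members higher and 26 lower in usage than WT siGL2, against 0.886% of all transcripts tested (0.539% higher, 0.347% lower), and 414 higher and 370 lower in level, against 7.17% (3.12% higher, 4.05% lower). TNRC6B-208 (chr22:40177925-40246362) belongs to a gene that carries the knockout deletion, and had 54.9, 40.7 and 70.8 reads in WT siGL2 and 0, 1.38 and 1.77 reads in the knockout, a fall in usage (adjusted p = 0.00729). In untransfected cells it had 32.4, 41.3 and 50.7 reads in WT, 5.51, 1.66 and 3.15 in TNRC6AB-/- (usage −2.47, adjusted p = 0.0727) and 58, 31 and 30.1 in TNRC6B-/-, which overlaps WT (usage 0.48, adjusted p = 1.0). The call in TNRC6AB-/- siGL2 held in each of the 6 fits without 1 library. The number called was 39 without WT siGL2 replicate 1 and 406 without WT siGL2 replicate 3, of which 383 were higher. Across the members tested the median usage difference was 0.16, against 0.03 for all transcripts tested and 0.08 for processed transcripts.

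In summed share 44 genes were higher and 12 lower in TNRC6AB-/- siGL2 than in WT siGL2, against 0.574% of all sums (0.324% higher, 0.25% lower). DDX60, an interferon-induced helicase gene with 1 member, had 0, 1.17 and 0 reads on it in WT siGL2 and 9.95, 14.1 and 10.8 in the knockout (adjusted p = 0.0226), few reads in all. That member stayed below 10 reads in every WT and WT siGL2 library. It entered the class through other libraries, among them those with 14.1 and 10.8 reads here, so its rise is not independent of the class filter. SNRPG, an Sm protein of the spliceosome, rose from 0.257, 0.411 and 0.318% to 1.01, 1.19 and 1.26% without overlap (1.65, adjusted p = 0.0158), and UQCC1, an assembly factor of respiratory complex III, rose from 9.15, 7.57 and 7.66% to 14.2, 13.9 and 14.7% (1.5, adjusted p = 0.0173). DDX60 and SNRPG lost the call without WT siGL2 replicate 1 or without TNRC6AB-/- siGL2 replicate 2 or 3 (adjusted p of up to 0.0762), and UQCC1 without TNRC6AB-/- siGL2 replicate 1 or 3 (adjusted p = 0.0586 and 0.054). WDR90-203 was listed at 0 in TNRC6AB-/- siGL2 and made up 3.93, 4.29 and 4.46% in WT siGL2 (adjusted p = 0.00564), yet the summed share of WDR90 differed by 0.03 (adjusted p = 1.0), so in the knockout the other retained-intron isoforms of WDR90 held about as large a share of the gene.

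Most calls were made between TNRC6AB-/- siTNRC6C, in which all 3 paralogs were mutated or depleted, and WT siGL2. Usage of 1094 members rose and that of 93 fell, which was 6.35% and 0.54% of the members tested, where 4.79% of all transcripts tested were called, 3.35% higher and 1.44% lower. The median usage difference was 0.42 on the log2 scale for the members tested and 0.11 for all transcripts tested, and 78.1% of members tested had a difference above 0. Level changed in 2654 members, 1848 higher and 806 lower, which was 15.4% of the members tested, against 18.6% of all transcripts (8.15% higher, 10.4% lower). Of the 1094 members higher in usage, 462 were also called higher in level and 11 lower, and their host genes had a median log2 difference of −0.23 in total reads, against 0.11 for the host genes of all members. Of the 93 lower in usage, 62 were also lower in level.

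The 4 other biotypes compared had smaller medians and fewer calls of higher usage, and more calls of lower usage. Called higher in usage were 3.48% of processed transcripts (median 0.25), 2.80% of transcripts annotated for nonsense-mediated decay (median 0.15), 2.35% of protein-coding transcripts (median 0.00) and 1.22% of lincRNA transcripts (median 0.02). Called lower were 0.54% of members, 1.13% of processed transcripts, 1.25% of transcripts annotated for nonsense-mediated decay, 1.89% of protein-coding and 2.2% of lincRNA transcripts. Usage within a gene sums to 1, so a higher retained-intron share goes with a lower share of other isoforms by construction. The summed share of retained-intron reads was higher for 832 genes and lower for 46, against 5.94% of all gene and biotype sums (4.87% higher, 1.07% lower). These numbers moved by over 1.5 times with each library left out. Without WT siGL2 replicate 3, the library with the highest class share of its group, 2736 members were higher and 84 lower in usage, and without WT siGL2 replicate 2 the numbers were 264 and 60. On log2 TPM shares, limma with a pseudocount of 1 turned the split to 1098 higher and 1446 lower with a median of −0.03, in a class in which most members average under 1 TPM.

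**Figure D3:**
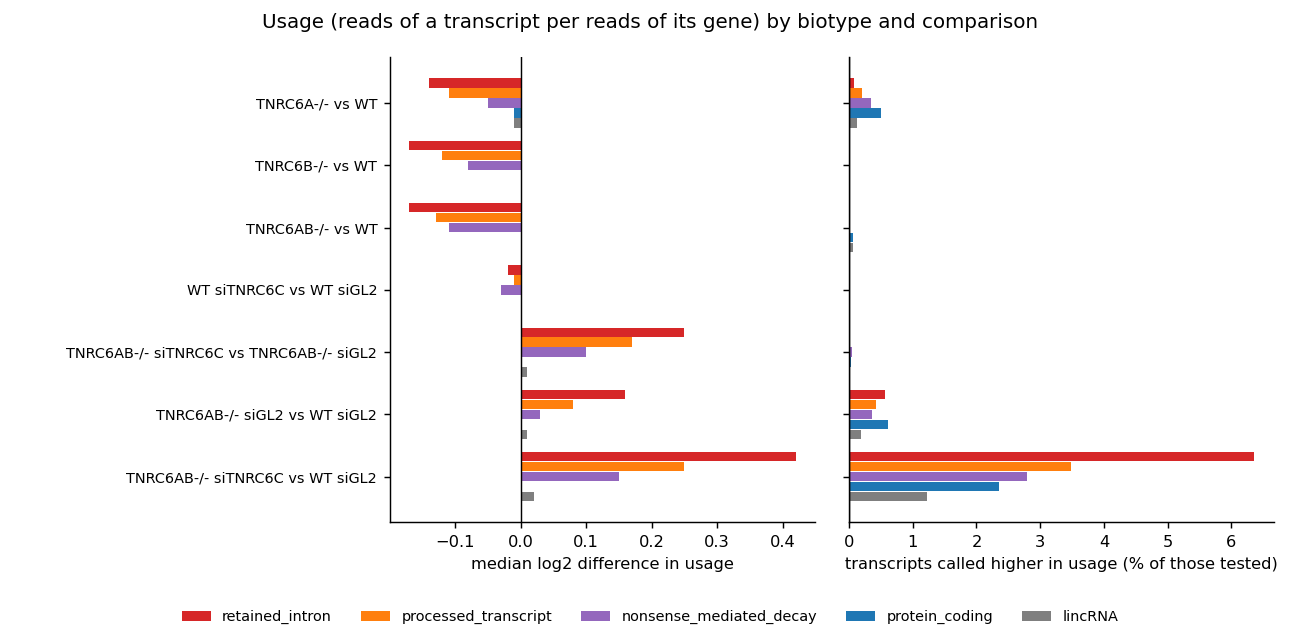
Median log2 difference in usage (left) and percentage of tested transcripts called higher in usage (right) for 5 GENCODE biotypes in 7 comparisons. Retained-intron transcripts have the longest bars in TNRC6AB-/- siTNRC6C against WT siGL2, with a median of 0.42 and 6.35% called higher. Their medians lie below 0 in the 3 untransfected knockouts, as do those of processed transcripts and of transcripts annotated for nonsense-mediated decay.

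Genes of the spliceosome were among those whose retained-intron share rose in TNRC6AB-/- siTNRC6C relative to WT siGL2. Of 94 members tested in a list of 37 spliceosome genes, 11 rose in usage (11.7%) and 0 fell, and 10 of 24 genes rose in summed share, with a median usage difference of 0.79. Over all members tested 6.35% rose in usage with a median of 0.42, over all transcripts tested 3.35% rose, and of all genes with members 11.9% rose in summed share. SNRNP70-203 (chr19:49102411-49108602), of the U1 snRNP 70-kDa protein, made up 3.35, 3.99 and 4.64% in WT siGL2, 3.83, 3.87 and 3.53% in WT siTNRC6C, 6.63, 6.68 and 7.50% in TNRC6AB-/- siGL2 and 8.49, 9.83 and 8.97% in TNRC6AB-/- siTNRC6C. The 2 WT groups overlapped and both double knockout groups lay above them. Usage in TNRC6AB-/- siTNRC6C was higher than in WT siGL2 by 1.13 (SE 0.13, adjusted p = 0.00118) and level by 0.64 (adjusted p = 0.000524), in a gene of 88.9 TPM against 84.3 TPM. In TNRC6AB-/- siGL2 usage was higher by 0.76 (adjusted p = 0.0201), a call lost without WT siGL2 replicate 2 or TNRC6AB-/- siGL2 replicate 2 or 3 (adjusted p of up to 0.0799). In untransfected cells SNRNP70-203 stood at 11, 15.1 and 8.05% in WT and 11.1, 11.7 and 11.4% in TNRC6AB-/-, with overlap, and usage differed by −0.06 (adjusted p = 1.0).

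U2AF1-210 (chr21:43092956-43096390), of the U2AF subunit that reads the 3′ splice site, made up 1.27, 1.36 and 2.04% in WT siGL2 and 3.73, 4.12 and 3.44% in TNRC6AB-/- siTNRC6C, without overlap (0.95, SE 0.13, adjusted p = 0.0036). SNRPG-207 rose from 0.146, 0.279 and 0.318% to 0.913, 0.880 and 0.880% (1.85, SE 0.3, adjusted p = 0.00687). The calls in usage of SNRNP70-203, U2AF1-210 and SNRPG-207 in this comparison held in all 6 fits without 1 library. Summed over its 2 members, SNRPG stood at 1.75, 1.29 and 1.27%, above WT siGL2 by 2.05 (adjusted p = 0.00198), and LSM6, of the Lsm ring around U6 RNA and outside the list, rose from 2.10, 0.964 and 1.87% to 10.1, 8.34 and 6.13% (2.23, adjusted p = 0.0238, and 0.0308 to 0.095 without 1 library). Untransfected WT libraries had U2AF1-210 at 3.8, 4.23 and 3.42% and SNRPG-207 at 1.32, 2.23 and 0.876%. For both members these overlapped TNRC6AB-/- siTNRC6C, so the rises are relative to WT siGL2 only.

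Nuclear decay and export genes had 5 of 63 members tested higher (7.94%, near the 6.35% of all members) and 0 lower in usage, with a median of 0.55 against 0.42. In summed share 6 of 21 genes were higher (28.6%, against 11.9% of all genes with members). THOC6-208 (chr16:3024031-3026515), of the THO export complex, made up 3.95, 4.09 and 6.26% in WT siGL2 and 14.9, 16.2 and 16.9% in TNRC6AB-/- siTNRC6C, all higher (1.81, SE 0.34, adjusted p = 0.0152, and 0.0682 and 0.0695 without WT siGL2 replicate 1 or 2). In the untransfected TNRC6AB-/- libraries it made up 17.3, 5.01 and 3.72%, the first of which was the library with the highest class share of that group. DDX39B-215, of an export helicase, rose from 6, 5.19 and 8.64% to 11.2, 11.8 and 11.7% (0.68, SE 0.14, adjusted p = 0.0221), and held the call in 1 of 6 fits, without WT siGL2 replicate 3 (adjusted p of 0.000767 to 0.089). Untransfected WT libraries had DDX39B-215 at 10.8, 11.7 and 9.99%, which overlapped TNRC6AB-/- siTNRC6C.

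In nonsense-mediated decay genes 3 of 37 members tested rose in usage (8.11%, near the 6.35% of all members) and 0 fell, with a median of 0.46 against 0.42. SMG1-204, of the kinase that phosphorylates UPF1, rose from 1.95, 2.58 and 2.20% to 4.06, 4.28 and 3.80% (1.07, SE 0.2, adjusted p = 0.0137). UPF3B-203, of a protein that binds the exon junction complex, rose from 4.89, 5.78 and 5.74% to 10.0, 13.1 and 13.2% (1.23, SE 0.26, adjusted p = 0.0223). Both had groups without overlap. SMG1-204 lost the call without WT siGL2 replicate 1 (adjusted p = 0.0539) or TNRC6AB-/- siTNRC6C replicate 2 (adjusted p = 0.0529), and UPF3B-203 without WT siGL2 replicate 1 or 2 or TNRC6AB-/- siTNRC6C replicate 2 or 3 (adjusted p of up to 0.0887).

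In the silencing list, which holds TNRC6, Argonaute, CCR4-NOT and related genes, 7 of 88 members tested rose (7.95%, near the 6.35% of all members) and 1 fell in usage, with a median of 0.57 against 0.42. TNRC6A-206 (chr16:24803922-24816347) made up 1.10, 1.24 and 1.09% in WT siGL2 and 2.03, 1.96 and 2.49% in TNRC6AB-/- siTNRC6C (1.71, SE 0.23, adjusted p = 0.00297), with a level higher by 0.97 (adjusted p = 0.0165, and 0.0608 without TNRC6AB-/- siTNRC6C replicate 3 and 0.0638 without WT siGL2 replicate 1). TNRC6A-215 rose from 2.87, 4.51 and 6.23% to 10.5, 10.1 and 6.93% (1.75, SE 0.33, adjusted p = 0.0137, and 0.06 without WT siGL2 replicate 2 and 0.0516 without TNRC6AB-/- siTNRC6C replicate 2). TNRC6B-208 was the member that fell, from 16.5, 11.3 and 20.9% to 1.13, 3.5 and 1.31% (−3.13, SE 0.51, adjusted p = 0.00764). In all 3 members the groups did not overlap. TNRC6C-208 rose by 2.05 relative to WT siGL2 (SE 0.28, adjusted p = 0.00301), and the calls in usage of TNRC6A-206, TNRC6B-208 and TNRC6C-208 held in all 6 fits without 1 library. CNOT3-210, of a CCR4-NOT deadenylase subunit, rose from 3.77, 3.99 and 4.70% to 10.5, 5.93 and 10.7% (0.98, SE 0.25, adjusted p = 0.0448), a call lost without replicate 1 or 2 of WT siGL2 or replicate 1 or 3 of TNRC6AB-/- siTNRC6C (adjusted p of up to 0.15). These genes include the targets of the knockout and the siRNAs. In untransfected TNRC6AB-/- cells none of the 8 host lists had a member called in usage except the spliceosome list, with SF3A1-208, whose gene differed by 0.02 in summed share, and in WT siTNRC6C none had any.

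Ribosomal protein genes had rises in usage beside falls in level. Of 198 members tested, 58 rose (29.3%, against 6.35% of all members and 3.35% of all transcripts) and 1 fell in usage, and 36 of 67 genes rose in summed share (53.7%, against 11.9% of all genes with members). In level 1 member rose and 81 fell, where 4.67% of all members and 10.4% of all transcripts fell. RPSA-206, of the small subunit, rose from 1.18, 1.33 and 1.54% to 3.17, 3.19 and 3.59% (1.32, SE 0.13, adjusted p = 0.000535), with a level difference of −0.27 (adjusted p = 0.118) and a gene mean of 413 TPM against 790 TPM. Its call in usage held in all 6 fits without 1 library. In TNRC6AB-/- siGL2 against WT siGL2 19 ribosomal protein members rose in usage (9.6%, against 0.563% of all members and 0.539% of all transcripts) and 0 fell. In level 22 fell, where 2.14% of all members and 4.05% of all transcripts fell. In untransfected TNRC6AB-/- against WT none was called in usage and 26 fell in level, where 1.34% of all members and 1.08% of all transcripts fell.

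Genes known for detained introns had few calls in usage. Of 161 members tested in 20 such genes, 3 rose (1.86%, against 6.35% of all members) and 2 fell in usage in TNRC6AB-/- siTNRC6C relative to WT siGL2, with a median of 0.22 against 0.42 for all members tested. Level calls were more frequent, with 25 rises and 9 falls. Of all members tested 10.7% rose and 4.67% fell in level, and of all transcripts 8.15% rose and 10.4% fell. TAF1D-206, of a subunit of the RNA polymerase I factor SL1, rose from 2.76, 2.48 and 3.30% to 5.94, 5.33 and 5.05% (0.80, adjusted p = 0.00646) and CCNL1-210, of cyclin L1, fell from 13.5, 12.3 and 12.6% to 8.69, 9.01 and 9.49% (−0.60, adjusted p = 0.00639), both without overlap. The change of CCNL1-210 lay at the fold threshold and fell short of it without WT siGL2 replicate 1 (−0.56) or TNRC6AB-/- siTNRC6C replicate 1 (−0.57) or 2 (−0.60 when rounded). Of 36 members tested in SR protein genes 1 rose and 0 fell, with a median of 0.17. In interferon-stimulated genes 0 of 32 members tested rose and 1 fell (3.12%, where 0.54% of all members tested and 1.44% of all transcripts fell). It was IFI27-205, with 11.8, 6.17 and 20.4% in WT siGL2 and 2.96, 4.06 and 3.37% in TNRC6AB-/- siTNRC6C (−1.23, SE 0.28, adjusted p = 0.0286), in a gene that averaged 14.5 TPM against 1.82 TPM. This call held in 1 of the 6 fits without a library, the one without WT siGL2 replicate 2. In summed share 2 of 16 interferon-stimulated genes rose (12.5%, near the 11.9% of all genes with members) and 1 fell, where 0.66% of all genes with members fell.

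**Figure D4:**
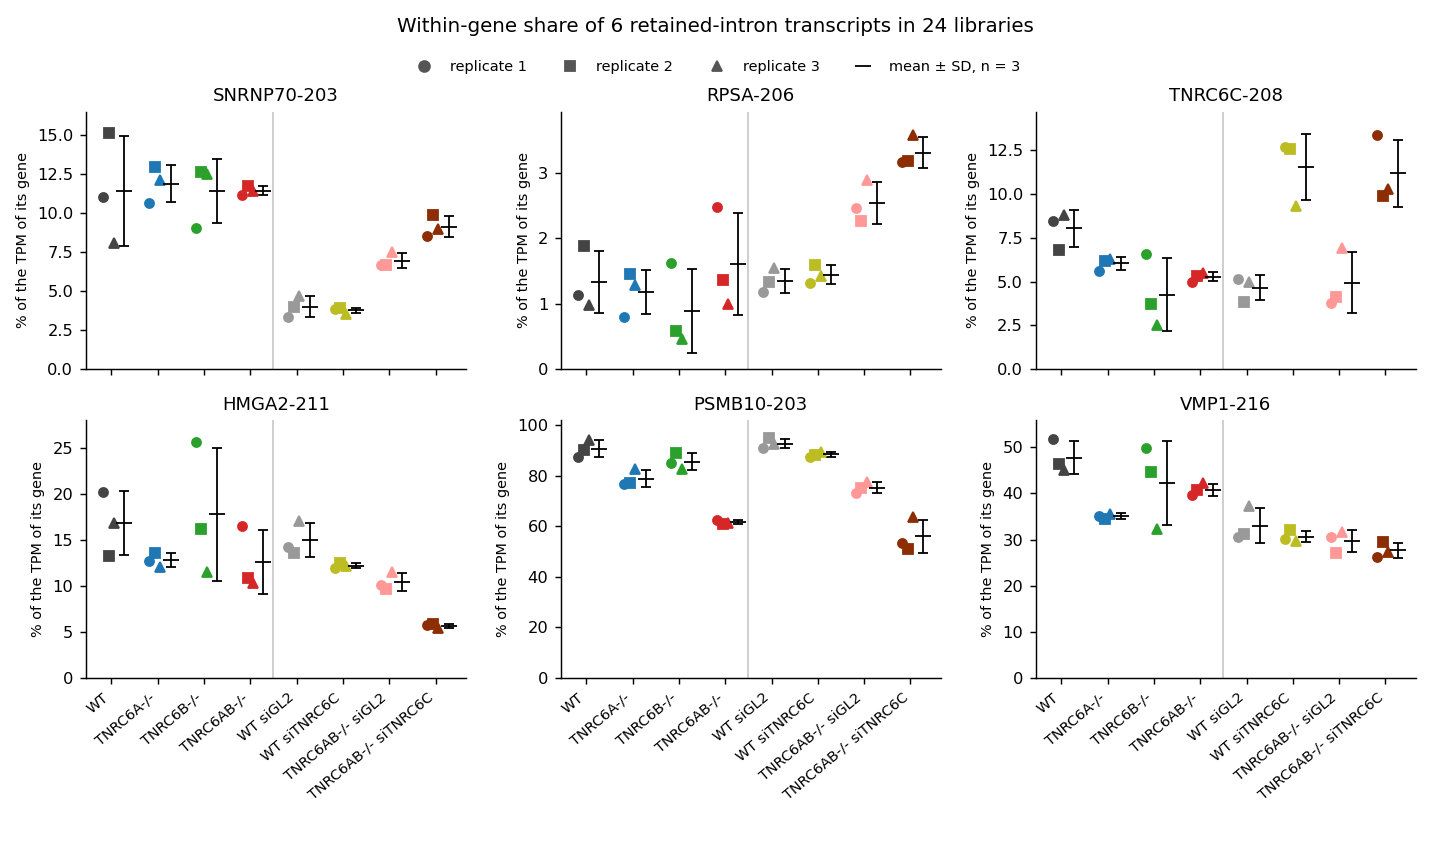
Within-gene share (% of the TPM of the gene) of 6 retained-intron transcripts in 24 libraries by group, with the mean ± SD of 3 libraries beside the points. SNRNP70-203, RPSA-206 and TNRC6C-208 are higher in TNRC6AB-/- siTNRC6C than in WT siGL2, HMGA2-211 and PSMB10-203 are lower, and VMP1-216 has its highest group mean in untransfected WT, with libraries at 45.1 to 51.9%.

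Some falls in usage in the double knockout appeared in libraries that were not shared. Of the 4 members lower in TNRC6AB-/- than in WT, 3 (75% of these, and 3.3% of the 91 lower in the second comparison among members tested in both) were also lower in TNRC6AB-/- siTNRC6C than in WT siGL2. Over all transcripts this held for 21 of 32 (65.6%), and for 1.82% of the 1151 lower in the second comparison. In TNRC6AB-/- siGL2 against WT siGL2, 0 of the 4 members were called lower, with all 4 differences below 0, against 15 of 32 among all transcripts (46.9%). PSMB10-203 made up 91, 94.7 and 92.3% in WT siGL2, 73.2, 75 and 77.4% in TNRC6AB-/- siGL2 and 53.5, 51.1 and 63.5% in TNRC6AB-/- siTNRC6C, an order without overlap (−1.23 for the last against the first, adjusted p = 0.000292). FN1-227 made up 4.07, 4.12 and 9.91% in WT siGL2 and 1.97, 1.37 and 0.877% in TNRC6AB-/- siTNRC6C (−2.10, adjusted p = 0.0201, lost without TNRC6AB-/- siTNRC6C replicate 2 or 3 at 0.0751 and 0.0711). COL15A1-204 made up 96.3, 97.4 and 96.3% and 74.1, 69.5 and 75.9% (−1.70, adjusted p = 0.0105). These are further libraries of the same 2 lines and not further lines.

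HMGA2-211 and TMEM167A-205 fell relative to WT siGL2 in genes with a higher TPM. HMGA2-211 made up 14.3, 13.6 and 17.1% in WT siGL2 and the 5.38 to 5.84% of TNRC6AB-/- siTNRC6C given above (−1.72, SE 0.12, adjusted p = 6.43e-05). The gene averaged 380 TPM against 64.8 TPM, and the level of the member was higher by 0.53 (adjusted p = 0.00581). TMEM167A-205 made up 9.40, 13.3 and 16.4% and 2.83, 3.20 and 3.02% (−2.83, SE 0.21, adjusted p = 9.27e-05), in a gene of 57 TPM against 42.3 TPM. Among called members, 4 that rose and 8 that fell in this comparison were at 0 in 1 group, and setting such members to a bound of 3 counts left the median over members at 0.42.

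The most abundant members belong to highly expressed genes, many of them for ribosomal proteins. RPL4-203, with 22991 mean reads the most abundant of all, made up 29.7, 28.4 and 29.9% in WT and 37.1, 36.3 and 36.3% in TNRC6A-/-, a small difference without overlap (0.25, SE 0.029, adjusted p = 0.00351) below the fold threshold. RPL14-208, also of the large subunit, stood at 60.1, 58.1 and 60.5% in WT and 78.7, 78.8 and 78.6% in TNRC6A-/- (0.45, SE 0.049, adjusted p = 0.00226). RPS23-203, with 16472 mean reads and a held intron of 78 bases, made up 54.5 to 60.3% of its gene in every library, while its level in TNRC6AB-/- siTNRC6C was 1.11 lower on the log2 scale than in WT siGL2 (adjusted p = 3.56e-05). ADGRF1-206, of an adhesion G protein-coupled receptor gene, made up 86.5, 84.4 and 84.6% in WT, 98.8, 99.2 and 98.9% in TNRC6A-/-, 98, 99 and 98.8% in TNRC6B-/- and 99.7, 99.6 and 99.5% in TNRC6AB-/-, all knockout libraries above WT (0.24, adjusted p = 0.000113 for TNRC6A-/-, and 0.25, adjusted p = 0.00143 for TNRC6AB-/-). VMP1-216, a single-exon transcript of an autophagy gene, made up 51.9, 46.3 and 45.1% in WT, 35.2, 34.4 and 35.6% in TNRC6A-/-, 30.5, 31.3 and 37.3% in WT siGL2 and 26.2, 29.4 and 27.3% in TNRC6AB-/- siTNRC6C. The TNRC6A-/- libraries were below WT, but usage did not pass the threshold (−0.24, adjusted p = 0.198). OGT-210, of the O-GlcNAc transferase, whose detained intron is well known, ranged from 24.8 to 38.2% over the 24 libraries.

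Members differed in how often they were called, and depth moved with it. In TNRC6AB-/- siTNRC6C against WT siGL2, 1.94% of members with up to 20 mean reads were called higher in usage, 6.73% of those with 20 to 50, 9.62% of those with 50 to 200 and 14.0% of those above 200. Their median differences ran the other way, at 0.48, 0.46, 0.37 and 0.24. By the number of bases that lie outside exons of any other biotype, 0.881% were called with none (median 0.02), 2.49% with up to 100 (0.29), 4.99% with over 100 to 300 (0.44), 6.62% with over 300 to 600 (0.46) and 10.0% above 600 (0.42). Those 227 members tested without a base of their own had a median close to 0. By whole introns held, 5.56% were called with none (median 0.44), 6.58% with 1 (0.37) and 10.4% with 2 (0.40), and the same 10.4% with 3 or more (0.35). Members whose held introns exceeded 1000 bases were called higher in 13.3% of cases and those with introns of up to 100 bases in 6.58%, with medians of 0.40 and 0.41. These are descriptions with no test, and the part of read depth in the shares called was not tested.

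**Figure D5:**
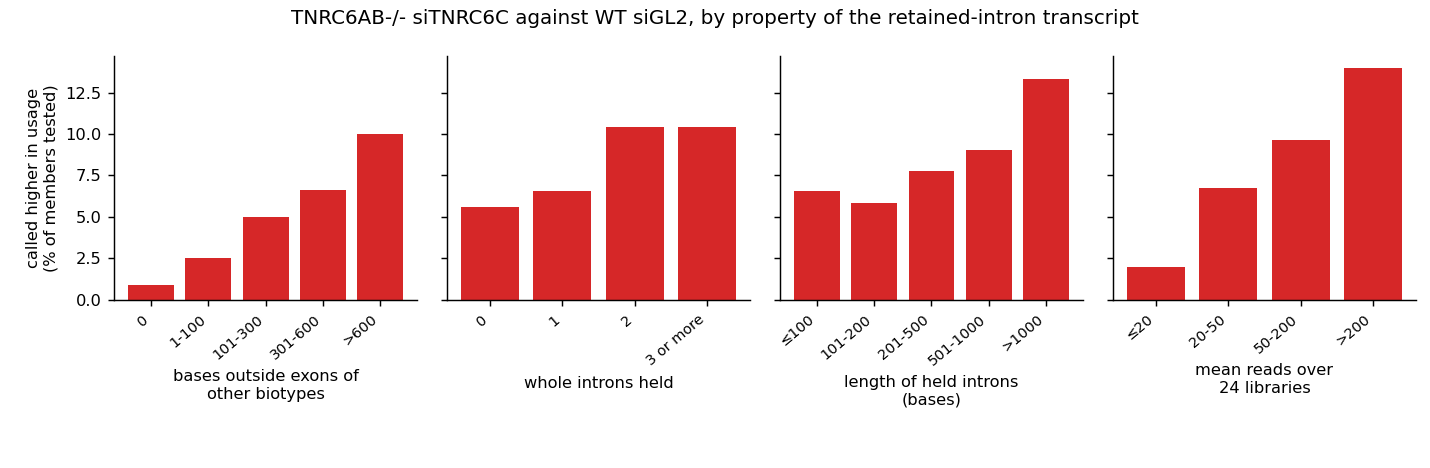
Percentage of tested retained-intron transcripts called higher in usage in TNRC6AB-/- siTNRC6C relative to WT siGL2, by bases outside exons of other biotypes, number of whole introns held, length of held introns and mean reads. The bars rise from 0.881% to 10.0% with bases outside other exons and from 1.94% to 14.0% with mean reads.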

How the data were processed

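RNA of HCT116 cells was sequenced with a strand-specific whole-transcriptome kit, and the authors quantified transcripts with Salmon (0.11.0, with STAR 2.5.3a and hg38 also named in the submitters' notes, and DESeq2 with no version given). The deposited tables hold estimated counts (expected counts, NumReads) and TPM values per transcript and library, and 0 columns of other samples. Salmon divides reads among overlapping isoforms, so a retained-intron transcript is an estimate resting on the bases that it alone holds, and sister isoforms can exchange reads. The labels and the study's methods name different RNA extraction kits. Nothing states that replicates were separate cultures, so p-values measure the spread between these libraries.

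Of 199612 transcripts, 199368 matched GENCODE 29 by identifier, 197048 of them with equal length. No library had over 0.0544% of its reads on the 244 others. The members, lists and comparisons were chosen with earlier results of these data known. Estimated counts were rounded and tested with edgeR 4.0.16 (R 4.3.3, quasi-likelihood, filterByExpr, 8 residual degrees of freedom) separately over 12 untransfected and 12 transfected libraries, with TMM for level and with the log of gene reads plus 1 as offset for usage. Benjamini-Hochberg adjustment ran over all transcripts tested, and calls needed adjusted p below 0.05 and a log2 change beyond 0.6. Class shares were compared by exact two-sided permutation. No interval is given for the shares, since counting error at this depth is far below the spread between libraries.

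Members were named by a rule: the 12 with most reads, up to 5 rises and 5 falls in usage per comparison in genes of at least 5 TPM without overlap, up to 2 members of genes the study names, and up to 3 per host list with the smallest adjusted p. Not all of these are printed, and a few items are not reported here. FN1-227, COL15A1-204, SUSD2-202, DUSP2-202, RABGGTA-220, FAM208A-203 and all genes named by summed share were chosen after their values were seen, and the test of summed share was added after seeing the data. No member rose or fell in usage both in TNRC6AB-/- against WT and in TNRC6AB-/- siGL2 against WT siGL2, so the second set of splice sites was chosen after values were seen. Alternatives were no filter, all 24 libraries or the 6 compared in a fit, a replicate block, limma 3.58.1 on log2 TPM shares with pseudocounts of 0.1 and 1, DESeq2 1.42.0, other units and member sets, and leaving out each library. Scripts were tested on simulated data with 200 members or gene sums changed, 100 of them 2-fold and 100 of them 4-fold. In TNRC6AB-/- against WT, 0% and 2% of these were recovered in usage, 0% and 0% in level, and 10% and 54% in summed share. For TNRC6AB-/- siTNRC6C against WT siGL2 they were 2% and 18%, 8% and 44%, and 34% and 81%. A low number of calls therefore does not show that members were unchanged. The changed ones were neither the rarest nor the most abundant, and for usage and summed share they had a low share of their gene. Nothing else was changed in the simulation, whereas 4.79% of all transcripts tested were called in usage in the last comparison of the real data. The adjusted p threshold is less strict where more changes are present, so the recovery given for that comparison need not hold there.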

Additional observations from a re-analysis of the deposited data

Results flagged for a closer look

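In 5 members the response of usage to siTNRC6C differed between WT and TNRC6AB-/- cells by the test of the interaction with edgeR, where 0.0534% of all transcripts tested were called. RABGGTA-220 made up 11.4, 10.4 and 14.8% of its gene's TPM in WT siGL2, 3.47, 4.95 and 3.08% in WT siTNRC6C, 5.42, 5.79 and 7.08% in TNRC6AB-/- siGL2 and 13.9, 16.4 and 11.1% in TNRC6AB-/- siTNRC6C. It was lower after siTNRC6C in WT and higher in the double knockout, an interaction of 2.84 on the log2 scale (SE 0.38, adjusted p = 0.0405, and 0.0442 to 0.123 when 1 of the 12 libraries was left out). Neither change was called by itself, at −1.67 in WT (adjusted p = 0.138) and 1.17 in the double knockout (adjusted p = 0.228). CD44-225 made up 2.12, 2.42 and 2.74% in WT siGL2 and 1.73, 1.59 and 1.69% in WT siTNRC6C, beside the rise in double knockout cells described above, an interaction of 1.85 (SE 0.26, adjusted p = 0.0451, and 0.0532 to 0.143 without 1 library).

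FAM208A-203 made up 9.37, 9.56 and 10.9% in WT siGL2, 7.10, 7.84 and 6.92% in WT siTNRC6C, 12.9, 11.6 and 10.7% in TNRC6AB-/- siGL2 and 14.6, 15.5 and 15.5% in TNRC6AB-/- siTNRC6C. Its interaction of 1.03 (SE 0.11, adjusted p = 0.0108) was the only one of the 5 that held in all 12 fits without 1 library. Neither change of FAM208A-203 was called by itself, at −0.53 in WT (adjusted p = 0.0755) and 0.5 in the double knockout (adjusted p = 0.0482). Summed over its members, FAM208A was also the 1 gene called in summed share, at 1.0 (adjusted p = 0.0344, and 0.0218 to 0.168 without 1 library). SLC1A3-205 made up 13.6, 10.1 and 6.57% in WT siGL2, 9.58, 6.96 and 6.71% in WT siTNRC6C and 9.96, 10.9 and 9.02% in TNRC6AB-/- siGL2, and ALDH1A3-205 made up 13.1, 14.7 and 15.1%, 8.62, 9.77 and 9.02%, and 4.82, 8.30 and 10.6% in the same groups. Both were listed at 0 in TNRC6AB-/- siTNRC6C. Their fitted interactions of −7.48 (adjusted p = 0.0165) and −7.95 (adjusted p = 0.0425) depend on the prior count and bound nothing, and the calls held in 10 and 2 of the 12 fits without 1 library.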

How the results depend on the processing

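Class shares kept their direction in 78 of 84 other settings. The exceptions were small differences. With library TPM in place of reads, the share of the library differed by 0.105 points for siTNRC6C in WT, by 0.248 for TNRC6AB-/- siGL2 against TNRC6AB-/- and by 0.0235 for the stratified double knockout. Within host genes, siTNRC6C in WT differed by 0.0152 with every retained-intron transcript, and the stratified double knockout by −0.436 in reads and −0.064 as the median over members. Numbers of calls moved by over 1.5 times in 65 of 103 settings, and the cause was not tested.

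Numbers of members called in usage are given in the order TNRC6A-/-, TNRC6B-/-, TNRC6AB-/-, siTNRC6C in WT, siTNRC6C in TNRC6AB-/-, TNRC6AB-/- siGL2 against WT siGL2, TNRC6AB-/- siTNRC6C against WT siGL2 and the interaction, where they changed. A fit of all 24 libraries gave 251, 1, 49, 0, 4, 45, 610 and 1. Fits of 6 libraries gave 0 for TNRC6AB-/-, 0, 0, 4 and 287 for those that follow. Without a filter the numbers were 0 for siTNRC6C in WT, 70 and 739 for the last 2 comparisons and 3 for the interaction. With limma and a pseudocount of 0.1 they were 3 for TNRC6B-/-, 12 for TNRC6AB-/- and 58 for TNRC6AB-/- siGL2, and with a pseudocount of 1 they were 278, 1, 193, 4, 73, 1035 (290 higher, 745 lower) and 2544.

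For level, the numbers in the same order were 393, 17, 1009, 0, 14 and 407 with all 24 libraries, 376, 47, 877, 106 and 395 with DESeq2 for the first 5, and without a filter 37 for TNRC6A-/-, 171 for TNRC6AB-/-, and 7 and 90 for siTNRC6C in WT and in TNRC6AB-/-. For summed share, all 24 libraries gave 88, 1 and 39 for the 3 knockouts, 3 for siTNRC6C in TNRC6AB-/-, then 29, 464 and 0, and 6 libraries gave 35 for TNRC6A-/-, 0 for TNRC6AB-/-, 0 for siTNRC6C in TNRC6AB-/-, 2 and 262.

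Samples shared only a replicate number. Deviations of same-numbered libraries correlated at −0.0871 to 0.496 in untransfected and −0.0816 to 0.265 in transfected cells, over 0.1 in 7 and 2 of 18 pairs. A replicate block gave in usage 1 member for TNRC6AB-/-, 0 for siTNRC6C in WT, 3 for it in TNRC6AB-/-, 73 for TNRC6AB-/- siGL2 and 1 for the interaction, in level 37, 1 and 6 for TNRC6A-/-, TNRC6B-/- and siTNRC6C in WT, and in summed share 2 for TNRC6AB-/-, 3 for siTNRC6C in TNRC6AB-/- and 0 for the interaction.

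Left out one at a time, libraries gave in usage 22 to 37, 0 to 3, 0 to 3, 0 to 1, 2 to 17, 39 to 406, 324 to 2820 and 2 to 10 calls in the order above, in level 22 to 30, 1 to 6, 62 to 261, 6 to 23, 35 to 208, 483 to 1187 and 1657 to 3570, and in summed share 6 to 16, 0 to 5, 0 to 5, 0, 0 to 12, 22 to 317, 241 to 1931 and 0 to 1. Class shares then changed direction in 8 of 108 fits. Within host genes these were TNRC6AB-/- against WT (−1.65 to 0.496), siTNRC6C in WT (−0.443 to 0.803) and TNRC6AB-/- siGL2 against TNRC6AB-/- (−1.77 to 0.381). In share of reads they were siTNRC6C in WT (−0.264 to 0.258), TNRC6AB-/- siGL2 against TNRC6AB-/- (−0.576 to 0.234) and TNRC6AB-/- siGL2 against WT siGL2 (−0.0131 to 0.61).

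Of single members and genes, directions turned in 3 of 503 other settings and 3 of 642 fits without 1 library. SNRNP70-203 in TNRC6AB-/- against WT stood at 0.05 with both limma settings and at −0.24 to 0.15 without 1 library. Summed WDR90 in TNRC6AB-/- siGL2 stood at −0.0 and −0.07 without TNRC6AB-/- siGL2 replicate 3 or WT siGL2 replicate 1. TNRC6A-206 in TNRC6AB-/- siTNRC6C against WT siGL2 stood at −0.16 with a pseudocount of 1.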
